A study of Mus musculus with 4 samples.

Results

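The genes of the microfibril were examined in sorted mouse periosteal cells. They were the fibrillins Fbn1 and Fbn2, the latent TGF-beta binding proteins Ltbp1, Ltbp2, Ltbp3 and Ltbp4, elastin (Eln), and the microfibril-associated proteins Mfap2, Mfap4 and Mfap5. The members were chosen by gene symbol, 10 of the 54532 genes in the table, and all 10 passed the filter on low counts that left 13737 genes for testing. Bulk RNA-seq had been made from mice lacking Sfrp4, whose product is a secreted Wnt-binding protein, and from wild-type (WT) mice. Both genotypes were 4 weeks old and carried CtskCre and the mTmG reporter, so that cells with a history of Ctsk expression, and their descendants, were labelled by GFP. Cells of the periosteum, the sheet that covers the outer face of bone, were released from long bones, and the sort kept cells with GFP and CD200 and discarded those with CD105, 6C3, Thy1.2 or a marker of blood or vessel cells (Ter119, CD31, CD45). Each genotype had 2 libraries, and each library held the pooled cells of 3 mice, so p-values measure the spread between pools and not between animals. The label follows Ctsk expression, which osteoclasts share, and the deleted stretch of Sfrp4 is not given in the labels.

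Microfibrils are thin extracellular filaments built from fibrillin. They serve as the scaffold on which tropoelastin is laid down to make elastic fibres, and they also occur without elastin in some tissues. The latent TGF-beta binding proteins resemble fibrillins and, except for Ltbp2, bind the latent form of TGF-beta and store it in the matrix. Mutations of human FBN1 cause Marfan syndrome, with long bones, and those of human FBN2 cause congenital contractural arachnodactyly.

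The libraries held 17119332 to 18750003 counts. Levels are given in CPM, the usual counts-per-1000000 scale, relative to totals corrected by TMM (edgeR's adjustment for library composition), and 1 read counted for 0.0486 to 0.0667 CPM. Fold changes are log2 values of Sfrp4-/- minus WT from edgeR's quasi-likelihood test over all 13737 genes, with Benjamini-Hochberg adjustment and a threshold of 0.05. In that test 0% of genes passed, so that no member could be called, and the values below are descriptions of the libraries beside their errors. With an unadjusted p under 0.05 there were 97 lower and 194 higher genes, and DESeq2 called 7 genes. Sfrp4 itself was at 11.4 and 12.1 CPM in the Sfrp4-/- libraries, against 90.8 and 108 CPM in the WT libraries (log2 fold change -3.08 ± 0.31, SE, edgeR adjusted p = 0.377). The sort gene Cd200 was at 442 and 465 CPM in Sfrp4-/- and 486 and 669 CPM in WT libraries. Ctsk was at 1461 and 1684 CPM in Sfrp4-/- and 1055 and 2050 CPM in WT libraries. The 8 osteoclast markers, none of them at 0 in every library, summed to 3964 and 3690 CPM in Sfrp4-/- and 3034 and 3557 CPM in WT libraries. All 8 were tested, 7 with log2 fold changes above 0 and 1 below. Nfatc1 alone had both Sfrp4-/- libraries above both WT libraries, against 15.0% of all tested genes. Of the genes for surface proteins removed by the sort, Thy1 had 0 counts in every library, Ptprc (CD45) lay at 6.81 to 9.45 CPM in Sfrp4-/- and 5.87 to 8.51 CPM in WT libraries, and Pecam1 (CD31) had 28 and 11 counts in Sfrp4-/- and 29 and 21 counts in WT libraries.

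Promoter sequences are shown for Ltbp2, the binding protein with the lowest Sfrp4-/- values relative to WT, and for Ltbp1, the one with the next lowest p. Ltbp1 has 2 start sites, known to give a long and a short protein, and counts per gene cannot separate them. The windows run from 250 bases before to 50 bases after the annotated start, are read on the strand of the gene, and come from RefSeq (GRCm38.p6). Windows of 6 of the 10 members were searched, and only those of Ltbp2 and Ltbp1 are shown and described here. They lie at chr12:84876442-84876741 on the minus strand for Ltbp2, and at chr17:75005279-75005578 and chr17:75178531-75178830 on the plus strand for Ltbp1. Capitals mark matches, on either strand, to the motifs TATAAA (known to be bound by TBP), CCAAT (by NF-Y), GGGCGG (by Sp1), GTCTAGAC (the Smad palindrome), CAGAC (by single Smads), CTTTGAT (by TCF/LEF), CTTTGAA (also by TCF/LEF), TGANTCA (by AP-1), TGACGTCA (by CREB) and GGAATG (by TEAD).
Ltbp2: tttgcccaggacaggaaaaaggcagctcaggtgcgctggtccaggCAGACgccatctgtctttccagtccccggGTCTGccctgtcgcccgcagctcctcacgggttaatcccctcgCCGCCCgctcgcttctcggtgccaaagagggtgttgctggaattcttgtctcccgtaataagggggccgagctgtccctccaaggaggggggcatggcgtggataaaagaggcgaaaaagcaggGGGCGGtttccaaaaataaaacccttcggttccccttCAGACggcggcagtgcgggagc
Ltbp1 upstream start: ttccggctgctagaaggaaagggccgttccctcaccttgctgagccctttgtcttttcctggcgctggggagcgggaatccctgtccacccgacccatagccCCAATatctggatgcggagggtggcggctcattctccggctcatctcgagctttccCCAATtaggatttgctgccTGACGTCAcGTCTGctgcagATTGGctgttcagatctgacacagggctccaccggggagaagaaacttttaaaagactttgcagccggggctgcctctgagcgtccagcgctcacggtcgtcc
Ltbp1 downstream start: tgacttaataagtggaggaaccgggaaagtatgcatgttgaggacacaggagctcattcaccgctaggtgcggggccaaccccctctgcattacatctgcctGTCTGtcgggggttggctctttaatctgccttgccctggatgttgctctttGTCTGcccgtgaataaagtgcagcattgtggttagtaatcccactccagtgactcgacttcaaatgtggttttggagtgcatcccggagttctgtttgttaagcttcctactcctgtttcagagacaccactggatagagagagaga

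The Ltbp2 window held CAGAC at positions -205, -176 and 28 from the start and GGGCGG at positions -133 and -9, with none of the other motifs. The upstream Ltbp1 window held CCAAT at positions -148, -92 and -53, TGACGTCA at -73 and CAGAC at -64, and the downstream window held only CAGAC, at -148 and -97. No motif matches overlapped in these 3 windows. Over all 32851 windows in the table, CAGAC was present in 49.6%, CCAAT in 37.4%, GGGCGG in 35.7% and TGACGTCA in 1.79%. The palindrome was in 0.213%, TATAAA in 13.6%, CTTTGAT in 3.73%, CTTTGAA in 5.14%, TGANTCA in 7.81% and GGAATG in 14.7%. GC content was 61.0% in the Ltbp2 window and 58.7% and 50.0% in the upstream and downstream Ltbp1 windows, against a median of 52.7% over all windows. A match says only that the letters are present, and no binding was measured in these cells.

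Levels per kilobase of gene length, which allow genes to be compared, spanned a wide range. Mfap2 was the most abundant member, at 211 ± 74.8 CPM per kb in Sfrp4-/- and 239 ± 107 CPM per kb in WT libraries (SD, n = 2 each), above 98.6% of the tested genes. It encodes a small glycoprotein, also called MAGP1, that binds fibrillin. Mfap4, a fibrinogen-related glycoprotein of elastic fibres, came next at 41.2 ± 26.4 CPM per kb in Sfrp4-/- and 38.2 ± 2.00 CPM per kb in WT libraries. Ltbp3, which carries latent TGF-beta and is required for normal bone growth in mice, followed at 7.36 ± 4.01 CPM per kb in Sfrp4-/- and 10.2 ± 7.63 CPM per kb in WT libraries. Each of these 3 genes lay above the next in the order in all 4 libraries. Eln came next and lay above Fbn2 in 3 of 4 libraries. Fbn2, Mfap5 and Ltbp1 followed with mean levels of 1.85, 1.32 and 1.28 CPM per kb over the 4 libraries, and their order was not fixed, since Fbn2 was above Mfap5, and Mfap5 above Ltbp1, in only 2 of 4 libraries. Ltbp4, Fbn1 and Ltbp2 were lowest, with means of 0.590, 0.505 and 0.246 CPM per kb. Ltbp4 was above Fbn1 in 1 of 4 libraries, and Fbn1 above Ltbp2 in 3 of 4. Fbn1 was thus low by its counts in these cells, above 18.8% of the tested genes per length. The order of the 10 genes was the same with exon lengths from GENCODE M21, which are longer for Fbn2, Ltbp1 and Ltbp3 (13215, 10691 and 9069 bases) than those in the file (10480, 10480 and 5190 bases).

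**Figure D1:**
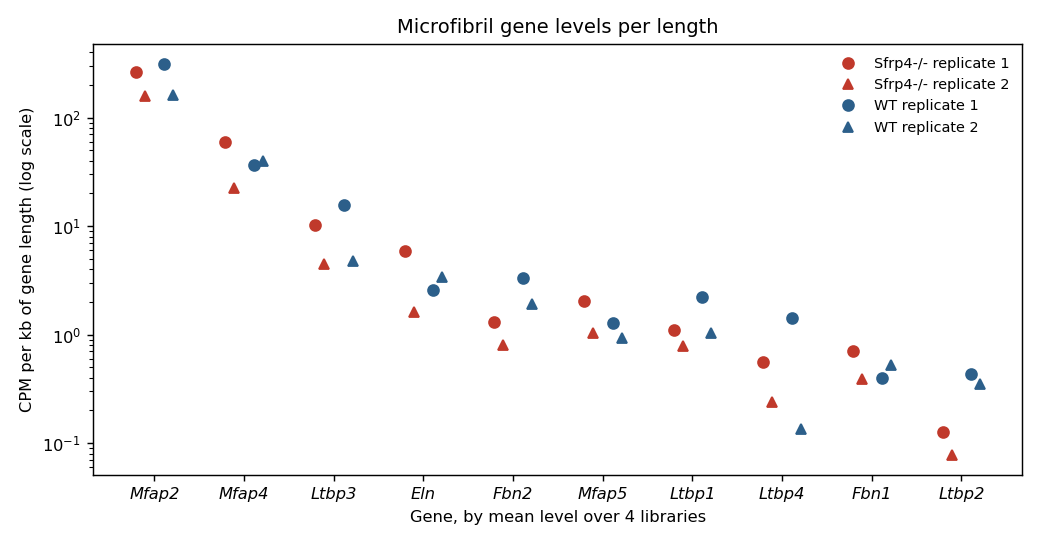
Level of each microfibril gene in each library, in CPM per kilobase of gene length on a log scale, with Sfrp4-/- libraries in red to the left and WT libraries in blue to the right, circles for replicate 1 and triangles for replicate 2. Mfap2 lies between 158 and 315 CPM per kb in every library, and for Fbn2 and Ltbp2 both red points lie below both blue points.

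Of the 2 fibrillins, Fbn2 had lower levels in both Sfrp4-/- libraries than in both WT libraries, and Fbn1 levels overlapped. Fbn2 (ENSMUSG00000024598, minus strand of chromosome 18, 58008623 to 58209926, mm10) encodes the fibrillin most used in embryonic and newly formed tissue. It was at 13.8 and 8.37 CPM in Sfrp4-/- libraries, against 35.1 and 20.1 CPM in WT libraries. Both Sfrp4-/- values lay below both WT values, as in 12.6% of all tested genes. Its log2 fold change was -1.32 ± 0.42 (SE), 2.49-fold lower, with a 95% interval of -2.32 to -0.32 (edgeR unadjusted p = 0.0173, adjusted p = 1.00). Without WT replicate 1 it was -0.85, and without Sfrp4-/- replicate 1 it was -1.72. Fbn1 (ENSMUSG00000027204, minus strand of chromosome 2, 125300594 to 125507993) encodes the main fibrillin of adult tissue. It was at 8.53 and 4.77 CPM in Sfrp4-/- and at 4.80 and 6.41 CPM in WT libraries, and the genotypes overlapped. Its log2 fold change was 0.24 ± 0.48 (95% interval -0.89 to 1.38), so a change of either sign was not detectable at this replication. Fbn1 shares 20.1% of its exon bases with Gm9913 on the other strand, which the libraries cannot separate. Gm9913 had 0 and 1 counts in Sfrp4-/- and 1 and 0 counts in WT libraries. The counting options were not stated, so reads over the shared bases may be missing from the Fbn1 counts.

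The balance of the fibrillins can be read within a library, where scaling between libraries has no part. Fbn2 made up 61.8% and 63.7% of the fibrillin counts in Sfrp4-/- libraries (256 of 414 and 172 of 270 counts), with exact binomial 95% intervals of 57.0% to 66.5% and 57.7% to 69.4%. In WT libraries it made up 88.0% and 75.8% (527 of 599 and 345 of 455 counts), with intervals of 85.1% to 90.5% and 71.6% to 79.7%. The means were 62.8% ± 1.32 in Sfrp4-/- and 81.9% ± 8.60 in WT libraries (SD, n = 2 each), a difference of -19.1 percentage points, and the intervals of the Sfrp4-/- libraries did not meet those of the WT libraries. The intervals of the 2 WT libraries did not meet each other either. Intervals cover counting error alone. The exact permutation test over libraries gave p = 0.333, two-sided, the smallest that 2 libraries against 2 allow. Over the 8 shares tested in this way the adjusted value was 0.667. Per kilobase of gene length the shares were 66.1% ± 1.27 in Sfrp4-/- and 83.9% ± 7.81 in WT libraries.

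**Figure D2:**
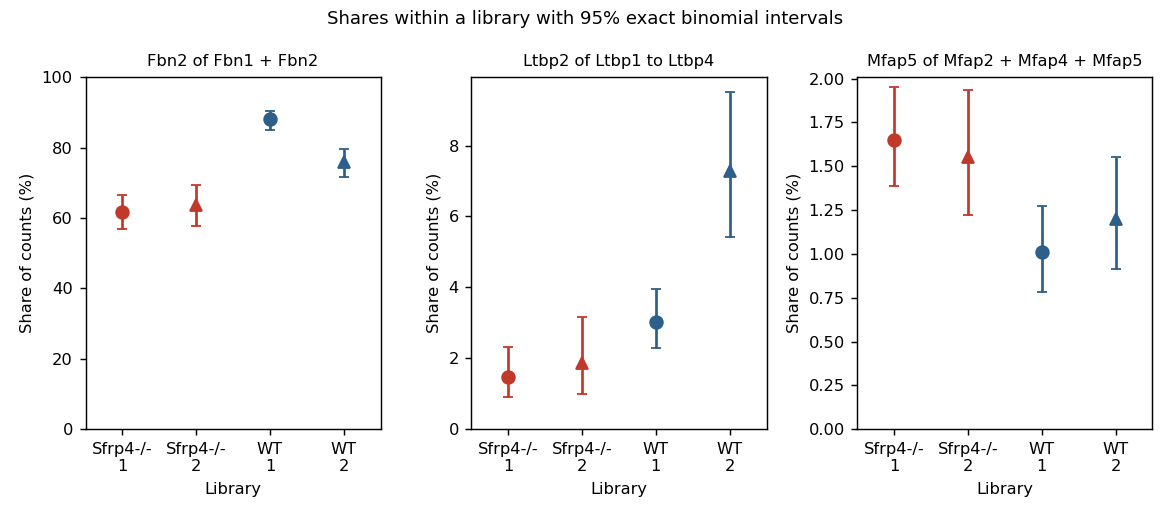
Share of counts within each library (percent, linear axes from 0) for Fbn2 among the fibrillins, Ltbp2 among the latent TGF-beta binding proteins, and Mfap5 among Mfap2, Mfap4 and Mfap5, with 95% exact binomial intervals as bars. The Fbn2 share is 61.8% and 63.7% in the Sfrp4-/- libraries, on the left, and 88.0% and 75.8% in the WT libraries.

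Among the latent TGF-beta binding proteins all 4 log2 fold changes were below 0, against 6811 of all 13737 tested genes. Only in Ltbp2 did the genotypes not overlap, and 12.6% of all tested genes had no overlap in this direction. The median of the 4 binding proteins was -0.87, and 0.25 without WT replicate 1. Ltbp2 (ENSMUSG00000002020, minus strand of chromosome 12, 84783212 to 84876532), a microfibril component that does not bind latent TGF-beta, had 19 and 13 counts in Sfrp4-/- and 53 and 49 counts in WT libraries. Its level was 1.03 and 0.632 CPM in Sfrp4-/- libraries, against 3.53 and 2.86 CPM in WT libraries. Both Sfrp4-/- values were below both WT values. For Ltbp2 the log2 fold change was -1.94 ± 0.77 (SE), 3.84-fold lower, with a 95% interval of -3.76 to -0.12 (edgeR unadjusted p = 0.0401, adjusted p = 1.00). D030025P21Rik on the other strand shares 9.34% of its exon bases and had 0 counts in every library. Reads over those bases may likewise be missing from the Ltbp2 counts. Within the counts of the 4 Ltbp genes, Ltbp2 took 1.49% and 1.87% in Sfrp4-/- and 3.03% and 7.27% in WT libraries. The counting intervals of Sfrp4-/- replicate 1 (0.897% to 2.31%) and replicate 2 (0.998% to 3.17%) met that of WT replicate 1 (2.28% to 3.95%) and lay below that of WT replicate 2 (5.43% to 9.50%).

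Ltbp1 and Ltbp3 bind latent TGF-beta and were the more abundant members of the family per length. Ltbp1 (ENSMUSG00000001870, plus strand of chromosome 17, 75005568 to 75392512) was at 11.5 and 8.22 CPM in Sfrp4-/- and 23.2 and 10.8 CPM in WT libraries. WT replicate 1 stood apart, the other 3 libraries lay close together, and the genotypes overlapped. The log2 fold change of Ltbp1 was -0.79 ± 0.45 (95% interval -1.87 to 0.29), and -0.13 without WT replicate 1. Ltbp3 (ENSMUSG00000024940, plus strand of chromosome 19, 5740904 to 5758532) was at 52.9 and 23.4 CPM in Sfrp4-/- and 80.7 and 24.7 CPM in WT libraries. Here the libraries split by replicate number rather than by genotype, with replicate 1 high and replicate 2 low in both. For Ltbp3 the log2 fold change was -0.46 ± 0.62, and it turned to 0.63 without WT replicate 1 and to 0.018 without Sfrp4-/- replicate 2. Ltbp3 made up most of the family's counts, 76.6% and 69.3% in Sfrp4-/- and 69.2% and 62.9% in WT libraries (exact permutation p = 0.333, adjusted 0.667), while Ltbp1 took 16.7% and 24.3% in Sfrp4-/- and 19.9% and 27.6% in WT libraries.

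Ltbp4, which in mice takes part in elastic fibre assembly, differed more between the WT libraries than between the genotypes. Ltbp4 (ENSMUSG00000040488, minus strand of chromosome 7, 27305136 to 27337692) had 67 and 32 counts in Sfrp4-/- and 138 and 15 counts in WT libraries, or 3.62 and 1.56 CPM in Sfrp4-/- and 9.20 and 0.874 CPM in WT libraries. WT replicate 1 was the highest and WT replicate 2 the lowest of the 4. The log2 fold change of Ltbp4 was -0.96 ± 1.03, and it turned to 1.56 without WT replicate 1. That library also held most of the endothelial transcripts. The 10 endothelial markers summed to 6.16 and 5.59 CPM in Sfrp4-/- and 28.3 and 1.98 CPM in WT libraries, with none of the 10 at 0 in every library and 6 tested, all 6 with log2 fold changes below 0. Cdh5, the cadherin of endothelial junctions and a defining marker, had 1 and 0 counts in Sfrp4-/- and 23 and 0 counts in WT libraries. Their part in the Ltbp4 values was not tested. In bulk samples, fewer cells of a type and less RNA per cell cannot be told apart.

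Elastin and its partner Mfap4 varied more between the Sfrp4-/- libraries than between the genotypes. Eln (ENSMUSG00000029675, minus strand of chromosome 5, 134702593 to 134747323) was at 47.7 and 13.0 CPM in Sfrp4-/- and 21.0 and 27.3 CPM in WT libraries. Sfrp4-/- replicate 1 was the highest and Sfrp4-/- replicate 2 the lowest, with both WT libraries between. The log2 fold change of Eln was 0.33 ± 0.58 (95% interval -1.05 to 1.70), and it turned to -0.89 without Sfrp4-/- replicate 1. Mfap4 (ENSMUSG00000042436, plus strand of chromosome 11, 61485431 to 61488900) had the same arrangement, at 115 and 43.3 CPM in Sfrp4-/- and 70.7 and 76.1 CPM in WT libraries. Its log2 fold change was 0.11 ± 0.47, and it turned to -0.76 without Sfrp4-/- replicate 1. Markers of smooth muscle and pericytes summed to 56.4 and 57.5 CPM in Sfrp4-/- and 76.2 and 56.3 CPM in WT libraries. Of these 10 markers 6 were tested, 4 with a log2 fold change below 0 and 2 above, and none was at 0 in every library. The 2 markers highest in mean CPM were Acta2 and Cspg4, and both overlapped between the genotypes. Together they made up most of each sum. Acta2 was at 27.3 and 39.4 CPM in Sfrp4-/- and 12.4 and 28.2 CPM in WT libraries (log2 fold change 0.71 ± 0.45). Cspg4 was at 25.6 and 9.24 CPM in Sfrp4-/- and 42.1 and 22.6 CPM in WT libraries (-0.89 ± 0.54). Myh11, the myosin of smooth muscle, had 0 and 1 counts in Sfrp4-/- and 0 counts in both WT libraries, and Tagln had 0 counts in both Sfrp4-/- libraries and 1 and 0 counts in WT libraries.

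Mfap2 and Mfap5 encode the related fibrillin-binding glycoproteins MAGP1 and MAGP2. Mfap2 (ENSMUSG00000060572, plus strand of chromosome 4, 141010418 to 141015984) was at 319 and 191 CPM in Sfrp4-/- and 381 and 197 CPM in WT libraries. Replicate 1 was high and replicate 2 low in both genotypes, and the genotypes overlapped. The log2 fold change was -0.18 ± 0.44 (95% interval -1.22 to 0.87), and it turned to 0.16 without Sfrp4-/- replicate 2 and to 0.38 without WT replicate 1. With libraries scaled by their totals alone it was 0.048, where the median of all genes was 0.24. Mfap5 (ENSMUSG00000030116, plus strand of chromosome 6, 122505845 to 122529290) was far lower per length, at 7.29 and 3.70 CPM in Sfrp4-/- and 4.60 and 3.32 CPM in WT libraries. The genotypes overlapped after TMM correction, though not with scaling by totals alone, where both Sfrp4-/- libraries were above both WT libraries. The log2 fold change was 0.47 ± 0.54 (95% interval -0.82 to 1.77). Within the counts of Mfap2, Mfap4 and Mfap5, Mfap5 took 1.65% and 1.55% in Sfrp4-/- and 1.01% and 1.20% in WT libraries (exact permutation p = 0.333, adjusted 0.667), and the counting intervals of the 2 genotypes met. The Mfap2 share was 72.3% and 80.3% in Sfrp4-/- and 83.5% and 71.3% in WT libraries, and the Mfap4 share was 26.0% and 18.2% in Sfrp4-/- and 15.5% and 27.5% in WT libraries, both overlapping.

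**Figure D3:**
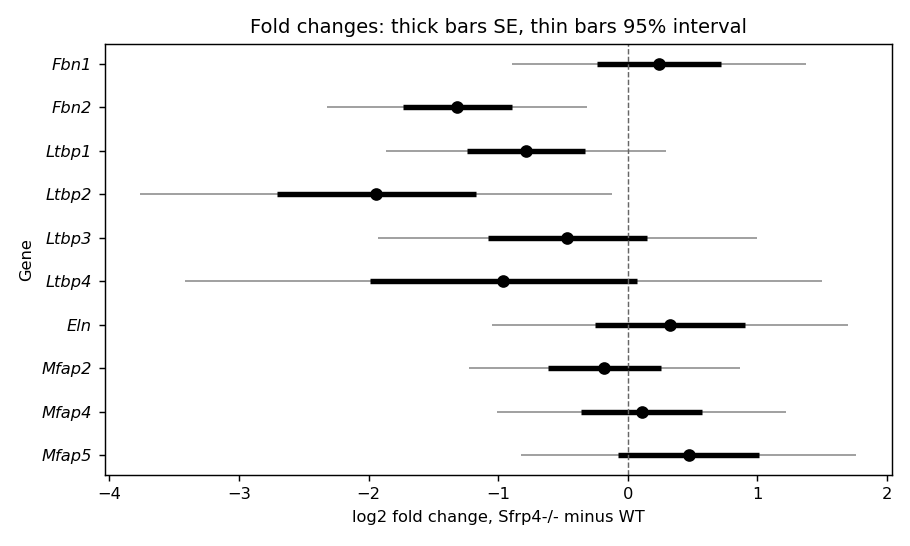
Log2 fold change (Sfrp4-/- minus WT) of each microfibril gene, with thick bars for the SE and thin bars for the unadjusted 95% interval from edgeR's quasi-likelihood fit. The thin bars of Fbn2 (-2.32 to -0.32) and Ltbp2 (-3.76 to -0.12) lie below 0 and those of the other 8 genes cross it.

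Of the 10 genes, 2 (Fbn2 and Ltbp2) had both Sfrp4-/- libraries below both WT libraries, against 12.6% of all tested genes, and 0 had both above, against 15.0%. With scaling by totals alone the same 2 were below and 1 (Mfap5) was above. The same 2 had an unadjusted p under 0.05 in the lower direction, against 0.706% of all tested genes. These members were listed with results of the same libraries already known, so these counts are no independent evidence. Log2 fold changes were below 0 in 6 members and above 0 in 4, with a median of -0.32, against 0.0031 over all tested genes. The median was 0.11 without WT replicate 1, 0.087 without Sfrp4-/- replicate 2, -0.97 without Sfrp4-/- replicate 1 and -0.83 without WT replicate 2. In sum, markers of cartilage cells were higher in replicate 1 than in replicate 2 of each genotype, and the sums overlapped between the genotypes. The 10 chondrocyte markers summed to 1114 and 401 CPM in Sfrp4-/- and 2647 and 785 CPM in WT libraries. Col11a2 made up most of each sum, at 906 and 319 CPM in Sfrp4-/- and 2133 and 644 CPM in WT libraries. Hapln1 was lower in replicate 1 in the WT libraries, at 14.9 and 18.1 CPM, as was Col10a1 in the Sfrp4-/- libraries. All 10 were tested, 8 had a log2 fold change below 0, none was at 0 in every library, and Col10a1 did not overlap (2 and 3 counts in Sfrp4-/-, 1064 and 67 counts in WT libraries). Most log2 fold changes of blood cell markers lay above 0. The erythroid list, with 10 of 11 genes matched and tested and none at 0 in every library, had 10 log2 fold changes above 0, a median of 1.07 and 6 genes with both Sfrp4-/- libraries above both WT libraries, and summed to 2074 and 2652 CPM in Sfrp4-/- and 739 and 2160 CPM in WT libraries. The 14 myeloid markers, all tested and none at 0 in every library, had 11 above 0 and 3 below, a median of 0.28 and 5 genes with both Sfrp4-/- libraries above both WT libraries, and summed to 967 and 1351 CPM in Sfrp4-/- and 682 and 1270 CPM in WT libraries. No gene of these 3 lists passed the test, and their part in the Fbn2 and Ltbp2 values was not tested.

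Most members were higher in the library numbered 1 than in the library numbered 2 of the same genotype. In the Sfrp4-/- libraries replicate 1 was above replicate 2 in 10 of 10 members, with a median log2 ratio of 0.91, whereas 49.7% of all tested genes had replicate 1 higher. In the WT libraries replicate 1 was above replicate 2 in 7 of 10 members, with a median log2 ratio of 0.64, against 51.8% of all tested genes. The exceptions in WT were Fbn1, Eln and Mfap4. The ratio of replicate 1 to replicate 2 was widest for Eln in Sfrp4-/- libraries, at 3.67, and for Ltbp4 in WT libraries, at 10.5. Of the 9 osteoblast markers, all tested, 6 had log2 fold changes below 0 and 3 above, with none at 0 in every library and all overlapping between the genotypes, and the list summed to 127530 and 65657 CPM in Sfrp4-/- and 152480 and 90574 CPM in WT libraries. Their part in the members' replicate ratios was not tested. The labels do not say what the replicate number stands for.

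**Figure D4:**
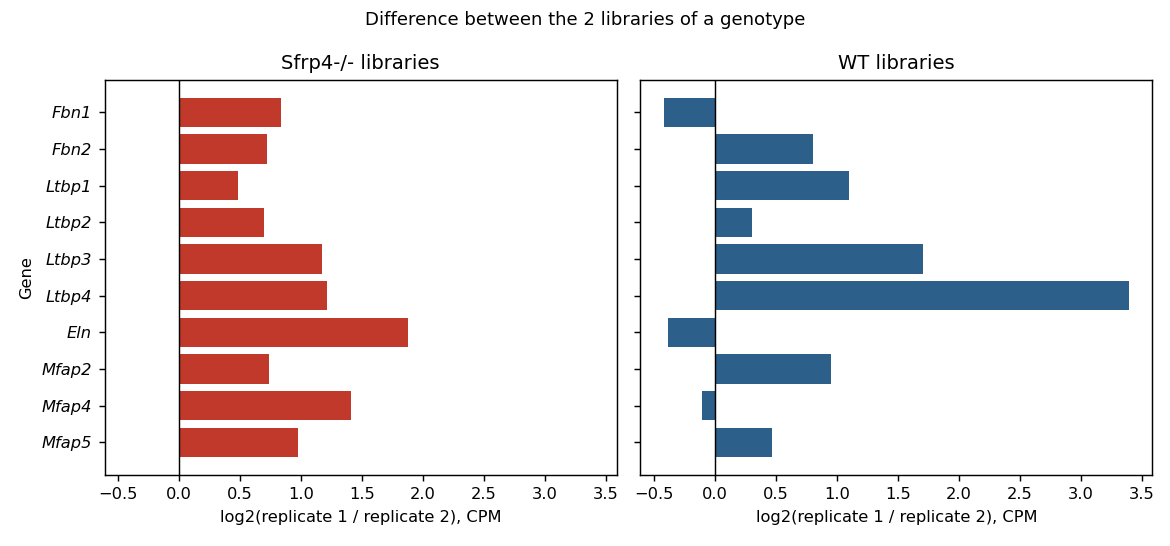
Log2 ratio of CPM between replicate 1 and replicate 2 for each microfibril gene, in Sfrp4-/- libraries (left) and WT libraries (right). All 10 bars point to replicate 1 in the Sfrp4-/- libraries and 7 of 10 do so in the WT libraries.

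Proteins that assemble or cross-link elastic fibres, a list of 17 genes, had no member past the test. Of the 16 tested, 10 had log2 fold changes below 0 and 6 above, with a median of -0.53, and 2 (Loxl2 and Dcn) had both Sfrp4-/- libraries below both WT libraries, against 12.6% of all tested genes. That median was -1.03 without Sfrp4-/- replicate 1, -0.027 without Sfrp4-/- replicate 2 and 0.062 without WT replicate 1. Loxl2, a lysyl oxidase-like enzyme that cross-links collagen and elastin, was at 15.1 and 3.79 CPM in Sfrp4-/- and 47.7 and 29.1 CPM in WT libraries (log2 fold change -2.02 ± 0.64, SE). Lox, the founding enzyme of that family, was at 680 and 330 CPM in Sfrp4-/- and 1143 and 677 CPM in WT libraries (-0.85 ± 0.47), with Sfrp4-/- replicate 1 just above WT replicate 2. Dcn, the small proteoglycan decorin, which binds collagen and TGF-beta, was at 8217 and 5480 CPM in Sfrp4-/- and 12622 and 9772 CPM in WT libraries (-0.71 ± 0.42).

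The ADAMTS family proteins that act on or bind fibrillin numbered 9, of which 8 were tested, Adamts19 had 0 counts in every library and none passed. Their median was -0.24, with 6 below 0 and 2 above, and it ran from -0.44 without Sfrp4-/- replicate 2 to -0.12 without WT replicate 1, with -0.42 without WT replicate 2. With totals alone it was -0.0040. Adamtsl2, whose human gene is mutated in geleophysic dysplasia and whose human product binds LTBP1 and fibrillin, was at 1.40 and 0.341 CPM in Sfrp4-/- and 4.27 and 4.49 CPM in WT libraries (log2 fold change -2.33 ± 0.83). Both Sfrp4-/- values were below both WT values, from 26 and 7 counts in Sfrp4-/- and 64 and 77 counts in WT libraries. Adamtsl5 was at 2.81 and 2.14 CPM in Sfrp4-/- and 5.87 and 3.61 CPM in WT libraries (-0.94 ± 0.57), likewise with no overlap, which 12.6% of all tested genes showed in this direction. Adamts10 overlapped, at 20.6 and 24.7 CPM in Sfrp4-/- and 31.7 and 24.6 CPM in WT libraries (-0.31 ± 0.31).

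The cargo of the latent binding proteins and the molecules that release it formed a list of 16 genes, of which 13 were tested and none passed. The median was -0.19, with 8 below 0 and 5 above. It was -0.45 without Sfrp4-/- replicate 1, -0.41 without WT replicate 2, 0.020 without Sfrp4-/- replicate 2 and 0.13 without WT replicate 1. Tgfb1, a TGF-beta ligand, was at 67.8 and 41.8 CPM in Sfrp4-/- and 68.3 and 40.8 CPM in WT libraries (log2 fold change 0.0082 ± 0.39), and was named after its value was seen. Tgfb3 was at 39.3 and 28.6 CPM in Sfrp4-/- and 43.0 and 43.1 CPM in WT libraries (-0.34 ± 0.30), and Tgfb2 at 7.83 and 4.48 CPM in Sfrp4-/- and 4.60 and 3.73 CPM in WT libraries (0.56 ± 0.50). Thbs1, thrombospondin 1, which can activate latent TGF-beta, was at 70.3 and 38.7 CPM in Sfrp4-/- and 210 and 72.7 CPM in WT libraries (-1.37 ± 0.56). In 2 of the 13 tested genes, Thbs1 and Tgfb3, both Sfrp4-/- libraries lay below both WT libraries, against 12.6% of all tested genes. Plg and Itgb6, the last an integrin subunit that activates TGF-beta on epithelia, had 0 counts in every library.

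Receptors and Smads, 8 genes that were all tested, had a median of -0.18 with 5 below 0 and 3 above, and none passed. In 2 of the 8, Smad4 and Smad7, both Sfrp4-/- libraries lay below both WT libraries, against 12.6% of all tested genes. In 2 others, Tgfbr3 and Smad2, both lay above, against 15.0%. The co-receptor gene Tgfbr3 was at 2.86 and 7.30 CPM in Sfrp4-/- and 2.73 and 0.816 CPM in WT libraries (log2 fold change 1.52 ± 0.80). Tgfbr1, the type I receptor, was at 11.9 and 18.8 CPM in Sfrp4-/- and 18.8 and 25.3 CPM in WT libraries (-0.52 ± 0.36). Smad2, which carries the signal to the nucleus, was at 31.4 and 25.4 CPM in Sfrp4-/- and 23.2 and 21.7 CPM in WT libraries (0.34 ± 0.30). The 17 genes known to respond to TGF-beta, Ltbp2 among them, had 15 tested and none past the test, with a median of -0.15, 10 below 0 and 5 above. Besides Ltbp2, those with the lowest p were Acta2, smooth muscle actin, at 27.3 and 39.4 CPM in Sfrp4-/- and 12.4 and 28.2 CPM in WT libraries (0.71 ± 0.45), and Pmepa1, an inhibitor of the pathway, at 185 and 137 CPM in Sfrp4-/- and 258 and 183 CPM in WT libraries (-0.46 ± 0.34). Both overlapped between the genotypes. In 2 of the 15 tested response genes, Ltbp2 and Smad7, both Sfrp4-/- libraries lay below both WT libraries, against 12.6% of all tested genes. Without WT replicate 1 the medians of the receptor list and of the response list were 0.16 and 0.017. Without WT replicate 2 the receptor median was -0.30, and without Sfrp4-/- replicate 1 it was -0.098. The response median was -0.014 without Sfrp4-/- replicate 2. With totals alone, where the median of all genes was 0.24, the ligand, receptor and response medians were 0.053, 0.087 and 0.12.

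BMP and GDF ligands, some of which bind fibrillin through their prodomains, formed a list of 8, of which 6 were tested and none passed, with a median of -0.26. The median was -0.63 without Sfrp4-/- replicate 1, -0.0063 without Sfrp4-/- replicate 2 and -0.062 with totals alone. Bmp10 and Mstn had 0 counts in every library. In 3 of the 6 tested genes both Sfrp4-/- libraries lay below both WT libraries, against 12.6% of all tested genes. These were Bmp7, at 45.7 and 30.4 CPM in Sfrp4-/- and 70.3 and 50.7 CPM in WT libraries (log2 fold change -0.67 ± 0.35), Bmp2, at 32.5 and 24.5 CPM in Sfrp4-/- and 41.0 and 40.3 CPM in WT libraries (-0.51 ± 0.30), and Gdf11, at 3.67 and 4.09 CPM in Sfrp4-/- and 4.74 and 7.29 CPM in WT libraries (-0.63 ± 0.48).

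**Figure D5:**
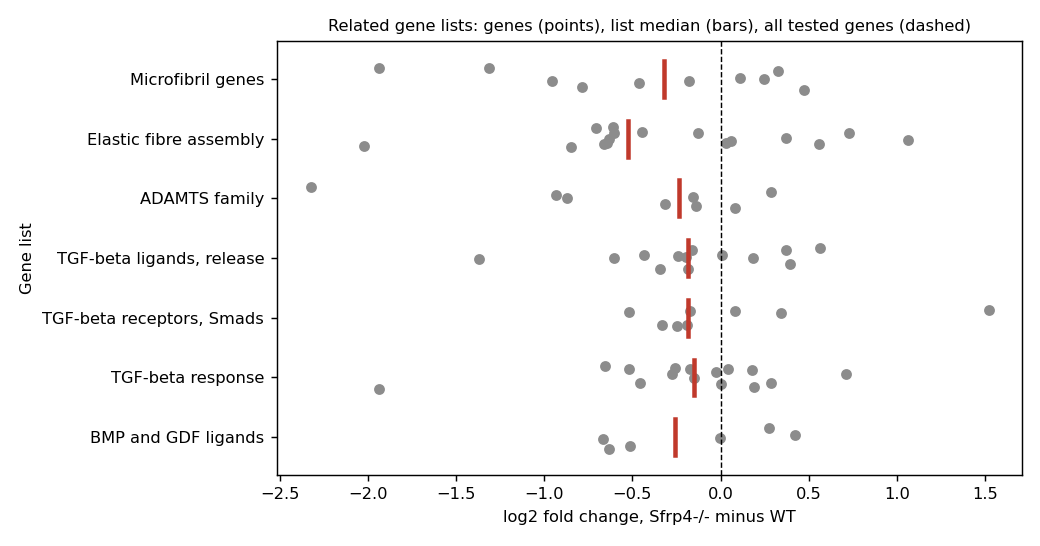
Log2 fold changes (Sfrp4-/- minus WT) of the tested genes of the microfibril list and of 6 related lists, with points for genes, spread vertically at random so that they can be seen, red bars for list medians and a dashed line for the median of all tested genes (0.0031). The medians run from -0.53 for elastic fibre assembly to -0.15 for TGF-beta response genes, and the points of every list lie on both sides of 0.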

How the data were processed

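The authors deposited raw counts per gene, not normalized, with gene coordinates and lengths, for 4 libraries. Per the labels' protocols, libraries were ultra-low-input, non-directional mRNA libraries (SMARTer). The submitters' processing notes name mm10 as the genome, and HISAT2 2.0.5, featureCounts 1.00-p3, CASAVA and DESeq2 1.20.0 as tools. The annotation release and the counting options were not stated in the sources used. GENCODE M21 (GRCm38) held 99.9% of the identifiers and gave exon overlaps and the alternative lengths.

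Groups and replicate numbers came from sample titles and the note in the table's first line. No pair of libraries agreed within counting noise (chi-square over its degrees of freedom was 51.7 to 230). The fit was edgeR 4.0.16 in R 4.3.3 (filterByExpr, TMM, glmQLFit, glmQLFTest, genotype as the only term), adjusted over 13737 genes and tested on simulated data. Each standard error was obtained from the fold change and the square root of its F statistic. Shares within a library used exact Clopper-Pearson intervals and exact permutation tests (scipy 1.17.1). Counts carry no molecular identifiers, so intervals cover counting error only.

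All 10 members are named; of each related list, the 3 genes with the lowest p. Members and lists were chosen with earlier results of these data known. Alternatives were other scalings (RLE, upper quartile, totals), a filter of 5 CPM or none, limma-voom (limma 3.58.1), DESeq2 1.42.0, a replicate block, leaving out each library and, chosen after seeing the data, GENCODE lengths.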

Additional observations from a re-analysis of the deposited data

How the results depend on the processing

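No member passed under any of the 12 alternatives in which it was tested; Ltbp2, Ltbp4 and Mfap5 did not reach the filter of 5 CPM. Fbn2, Ltbp1 and Ltbp2 kept negative fold changes throughout, at -1.72 to -0.85, -1.24 to -0.13 and -2.32 to -1.62. With each library left out in turn, the log2 fold change ran from -0.23 to 0.61 for Fbn1, -1.17 to 0.63 for Ltbp3, -1.84 to 1.56 for Ltbp4, -0.89 to 0.99 for Eln, -0.59 to 0.38 for Mfap2, -0.76 to 0.66 for Mfap4 and -0.097 to 0.89 for Mfap5. It also changed sign for Mfap2 with totals alone (0.048) and for Mfap4 with limma-voom (-0.055) and the replicate block (-0.052). The members' median ran from -0.97 to 0.11 with a library left out. Share differences, in percentage points, ran from -7.13 to 0.57 for Ltbp1, -2.97 to 2.69 for Ltbp4, -7.21 to 5.02 for Mfap2 and -5.42 to 6.62 for Mfap4, with each library left out, while that of Fbn2 ran from -25.2 to -13.1, that of Ltbp2 from -5.59 (without WT replicate 1) to -1.35 (without WT replicate 2) and that of Ltbp3 from 3.21 (without Sfrp4-/- replicate 1) to 10.6 (without Sfrp4-/- replicate 2). Over all genes, calls numbered 2 to 7 with a library left out, 20 without the filter, 7 with DESeq2 and 1 with the replicate block. Sfrp4 then passed, at -3.19 to -2.96 with a library left out (edgeR adjusted p = 0.0136 to 0.0412), -3.08 without the filter (edgeR adjusted p = 2.24e-10), -3.09 with DESeq2 (adjusted p = 2.58e-12) and -3.07 with the replicate block (edgeR adjusted p = 0.0218). The labels do not pair the libraries; replicate differences of the 2 genotypes correlated at 0.256 over genes. Where a genotype kept a single library, its spread was taken from the other genotype. The highest member's level was 914 times the lowest per kilobase and 135 times without length. The cause of these shifts was not tested. The fewest counts were those of Ltbp2 (13 to 53) and Ltbp4 (15 to 138).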

Other observations

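Of the 10 endothelial markers, 9 were highest in WT replicate 1; the genes named here were chosen after their values were seen. Emcn, which encodes the sialomucin endomucin, had 4 and 11 counts in Sfrp4-/- and 64 and 0 counts in WT libraries, and the vascular receptor gene Tie1 had 2 and 4 counts in Sfrp4-/- and 54 and 0 counts in WT libraries. The pericyte-associated channel gene Kcnj8 had 8 and 63 counts in Sfrp4-/- and 146 and 46 counts in WT libraries. Enpep, which encodes the 6C3 antigen removed by the sort, had 6 and 0 counts in Sfrp4-/- and 17 and 0 counts in WT libraries.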
